A study of Mus musculus with 12 samples.

Results

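Loss of Rb1 was followed in mixed cultures of mouse embryonic fibroblasts (MEFs) that had been driven toward muscle, in cells whose Kdm5a gene was intact. The comparison set the 2 libraries labelled Rb1 KO (Rb1-/-) against the 2 labelled WT, over the 17199 of 36229 deposited genes whose mean was at least 10 normalised reads across the 8 mixed-culture libraries. The lowest mean inside that limit was 10.008 and the highest outside it 9.991. The series holds 12 libraries of C57BL/6 MEFs, namely mixed cultures of WT, Kdm5a KO (Kdm5a-/-), Rb1 KO and DKO (Kdm5a-/-;Rb1-/-) and purified myotubes of WT and DKO, with 2 libraries a group. For the mixed cultures, an adenovirus that carries MyoD was left on the cells for 24 hours and fresh medium without virus for 72 hours more, the medium holding 10 µg/ml insulin and 2% horse serum throughout. The labels also list 10% fetal bovine serum and 10% CO2 for the culture of the cells. Libraries were made from 1.7 µg of total RNA after removal of ribosomal RNA and read as single reads of 40 bases. All 8 mixed-culture libraries, WT included, therefore share the virus, the medium and the library type.

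RB, the protein of Rb1, is a pocket protein that binds E2F transcription factors and holds their target genes, which run DNA synthesis and mitosis, at low levels when cells leave the cell cycle. In skeletal muscle it is needed for the lasting arrest of the myotube nuclei and for full expression of the late genes of differentiation that MyoD and MEF2 factors turn on. KDM5A, which removes methyl groups from lysine 4 of histone H3, was found through its binding to RB, and the study asked what happens to myogenic differentiation when either or both genes are missing.

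As a model, these cultures have limits that the labels state or leave out. Differentiation was started by a virus in fibroblasts, each culture mixes myotubes with cells that did not fuse, and the labels do not say whether the 2 libraries of a group came from separate embryos or cultures, so p-values measure only the spread between these libraries. In such bulk libraries, fewer cells of a type and less RNA per cell cannot be told apart. Rb1 itself read 5616 and 5649.5 in WT and 4457 and 4448 in Rb1 KO, a change of -0.34 ± 0.05 on the log2(value + 1) scale (limma adjusted p = 5.31e-05), which became -0.06 when libraries were scaled to equal totals. Which part of Rb1 was removed is not given in the labels, and its exons are shared with Lpar6 and Rcbtb2, so this level does not check the label. Kdm5a (shared with Ccdc77) read 1637 and 1871 in WT and 2094 and 1886 in Rb1 KO and did not pass, but passed as a rise without WT replicate 2 (0.28), without Rb1 KO replicate 2 (0.26) and with equal totals (0.47). Depth was 11983750 to 18469731 reads in the 4 libraries, and the ribosomal RNA of mitochondria, mt-Rnr2, took 13.8% and 14.6% of reads in WT and 10.9% and 10.0% in Rb1 KO. Of the tested genes 4419 (25.7%) share exons with another gene in the reference. Where such a gene is named its partner follows in parentheses and its level is uncertain. Unless a unit is given, values are normalised reads in the 2 libraries of a group, and changes are Rb1 KO minus WT on the log2(value + 1) scale with the standard error of limma's fit.

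Most of the transcriptome moved. At a limma adjusted p under 0.05, 12237 of 17199 genes (71.1%) passed, of which 6336 rose (36.8% of those tested) and 5901 fell (34.3%). The median change over all tested genes was 0.03, and it became 0.31 with libraries scaled to equal totals, where 7867 of 12317 passing genes rose. At least 8-fold changes were rarer. In all, 1005 genes (5.84%) rose at least 8-fold and 433 (2.52%) fell that far, and for 14354 genes (83.5%) the 2 Rb1 KO libraries both lay above or both below the 2 WT libraries. The genes that fell had held 72.7% and 72.8% of the normalised reads of the WT libraries and held 45.9% and 45.1% in Rb1 KO, whereas the genes that rose went from 16.8% and 16.7% to 41.5% and 42.1%. Markers listed for skeletal muscle and for fibroblasts moved with this exchange. The summed level of 15 skeletal muscle markers, all of which fell, was 474151 and 440562 in WT and 73133 and 72252 in Rb1 KO, and that of 15 fibroblast markers, of which 14 rose and 1 fell, was 36857 and 39024 in WT and 95916 and 112134 in Rb1 KO. Neither pair of sums overlapped. In the 2 WT libraries of purified myotubes, made from 1.5 µg of RNA and read at 36 bases, the muscle sum was 752498 and 733333. The fibroblast sum there was 65759.5 and 70425, so these fibroblast markers were not lower in purified myotubes than in mixed WT cultures. The part that these markers' shift, or the lower share of mt-Rnr2, has in the results that follow was not tested.

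**Figure D1:**
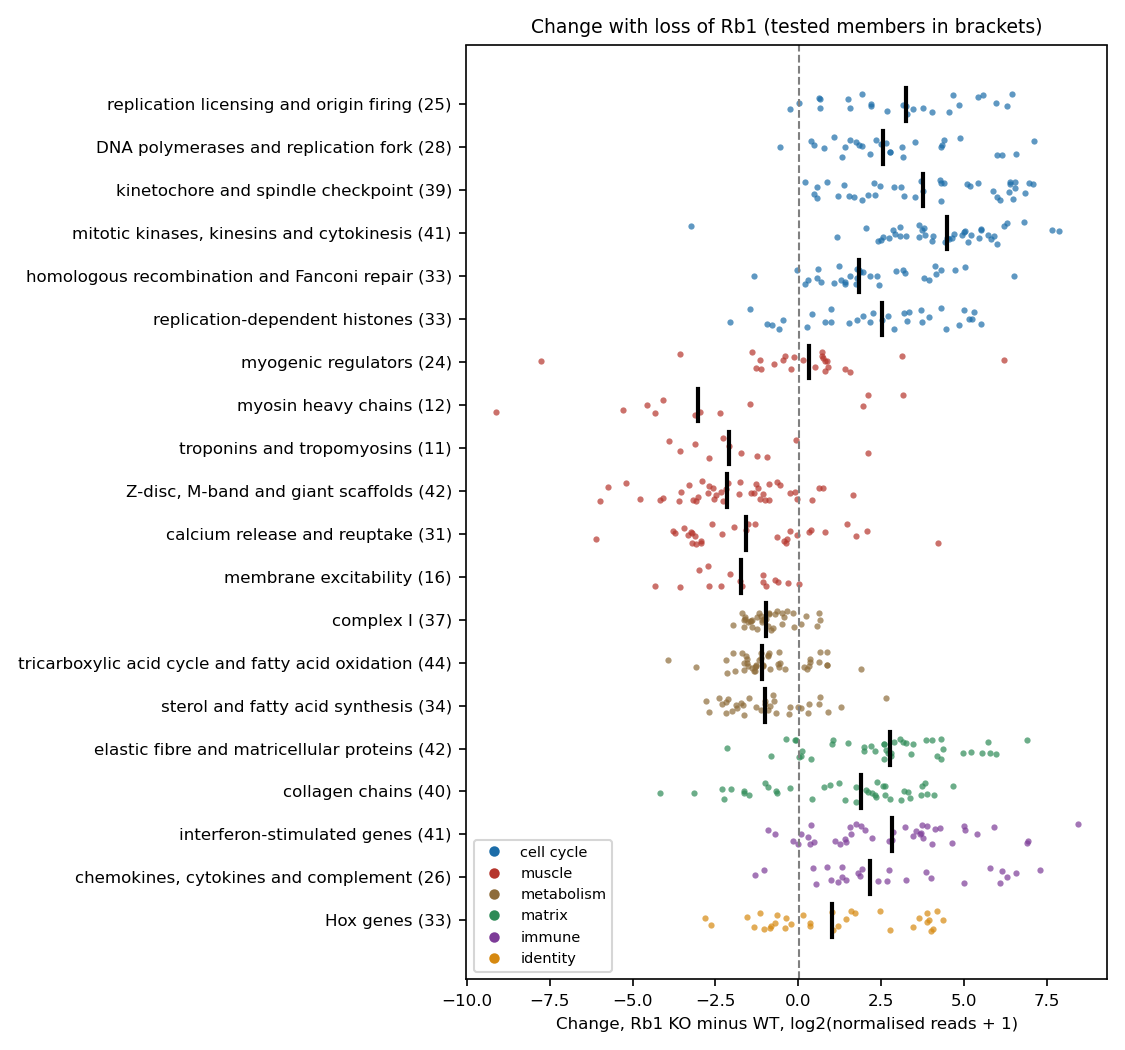
Change of every tested member of 20 gene lists, Rb1 KO minus WT on the log2(value + 1) scale, each point a gene and each black bar the median of its list, with the median of all 17199 genes as a dashed line. By median, cell-cycle and interferon lists lie to the right of that line and sarcomere, calcium, excitability and respiratory lists to its left, while collagens and Hox genes spread to both sides.

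The cell-cycle machinery rose from the first step of replication to the last step of division. Origin licensing, in which the MCM helicase is loaded and then fired, had 23 of 25 tested genes rise and 0 fall (median 3.24, against 0.03 over all genes). The helicase subunit Mcm6 read 165 and 179 in WT and 2458 and 2250.1 in Rb1 KO, Mcm5 79.0 and 73.6 in WT and 2075 and 1867 in Rb1 KO and the activating subunit of the DDK kinase, Dbf4, 123 and 135 in WT and 1488 and 1365 in Rb1 KO. WT and Rb1 KO libraries were more than 10-fold apart for each of these genes. Of 28 DNA polymerase and fork genes 26 rose and 1 fell (median 2.56). The checkpoint mediator Clspn rose by 7.12 ± 0.20 from 7.18 and 9.59 to 1335 and 1250.0, and the fork scaffold Wdhd1 from 44.3 and 40.5 to 2827 and 2652. The accessory polymerase subunit Pold4 was the member that fell, from 243 and 287 to 177 and 180.1, a call lost without Rb1 KO replicate 1, Rb1 KO replicate 2 or WT replicate 2 (log2 changes of -0.55, -0.57 and -0.44) and with equal totals (-0.28). Supply of nucleotides moved less evenly, with 16 of 21 genes up and 2 down (median 1.31). The deoxynucleoside kinase Dck (4.18 ± 0.10) and the dUTPase Dut (4.68 ± 0.19) rose, as did Rrm1, a subunit of ribonucleotide reductase (2.91 ± 0.08), while Impdh1, an enzyme of guanine nucleotide synthesis, fell from 1616 and 1339.9 to 889.8 and 960.3.

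By median, mitosis moved further than replication. All 39 kinetochore and spindle-checkpoint genes rose (median 3.76, range 0.19 to 7.08), and of 41 mitotic kinases, kinesins and cytokinesis genes 40 rose and 1 fell (median 4.47). The kinetochore scaffold Knl1 went from 9.57 and 12.8 to 1657 and 1371 and the kinesin Cenpe from 13.2 and 16.0 to 1488 and 1294. The proliferation marker Mki67 read 44.3 and 20.3 in WT and 2479 and 2376 in Rb1 KO (6.29 ± 0.43, limma adjusted p = 3.06e-08). The condensin subunits Ncapd3 (3.24 ± 0.09) and Ncaph (4.04 ± 0.11) rose as well. The member that fell, Ube2c (shared with Tnnc2), had the values of its muscle neighbour. Centriole duplication, which is tied to S phase, had all 9 genes rise, led by Stil, from 10.8 and 22.4 to 1816 and 1731. Among genes that passed with a group mean of at least 100, clone names left out, the regulator of sister-chromatid cohesion Esco2 had 1 of the 8 largest rises. It had 364-fold (95% counting interval 124 to 1768) more normalised reads in Rb1 KO. The DNA glycosylase Neil3 was another of the 8, at 356-fold (95% counting interval 98.2 to 2946). Of 33 homologous recombination and Fanconi genes 30 rose, among them Bard1 (4.31 ± 0.12) and the helicase Brip1 (5.02 ± 0.16), and Xrcc3 (shared with Klc1) fell (-1.33 ± 0.10).

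Promoters of 4 of these genes hold the short motifs through which E2F and the MuvB complex, which shares partners with the pocket proteins, are known to reach their targets. The windows below are the 150 bases before the start site on the gene's strand in GRCm38.p6, from RefSeq, and were chosen because they hold a match. Capitals mark the E2F letters TTTCCCGC, TTTGCCGC, TTTCGCGC or TTTGGCGC in Mcm6 (chr1:128359706-128359855, minus strand) and in the pocket protein gene Rbl1 (chr2:157204535-157204684, minus strand), on either strand. They mark the CHR letters TTTGAA or TTTAAA, which MuvB reads, in Cdk1 (chr10:69352913-69353062, minus strand) and Ccnf (chr17:24251410-24251559, minus strand).
Mcm6: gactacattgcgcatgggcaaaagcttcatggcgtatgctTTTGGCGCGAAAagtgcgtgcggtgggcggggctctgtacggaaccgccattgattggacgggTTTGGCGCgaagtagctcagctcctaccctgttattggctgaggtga
Rbl1: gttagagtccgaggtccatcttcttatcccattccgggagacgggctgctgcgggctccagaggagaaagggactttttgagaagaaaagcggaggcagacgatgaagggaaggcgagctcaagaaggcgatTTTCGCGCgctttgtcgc
Cdk1: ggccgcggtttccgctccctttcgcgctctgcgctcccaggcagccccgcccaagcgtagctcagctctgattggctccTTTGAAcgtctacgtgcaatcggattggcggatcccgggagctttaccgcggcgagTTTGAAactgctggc
Ccnf: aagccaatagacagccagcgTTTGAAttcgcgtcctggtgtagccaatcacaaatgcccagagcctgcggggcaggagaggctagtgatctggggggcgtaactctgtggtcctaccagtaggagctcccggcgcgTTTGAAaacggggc
In Mcm6 the matches start 110, 106 and 47 bases before the start site, the first 2 overlapping, and in Rbl1 the match starts 18 bases before it. In Cdk1 they start 71 and 15 bases before, and in Ccnf 130 and 14. CHR letters lay within 250 bases before to 50 after the start in 79.4% of the 34 mitotic-list promoters and 54.3% of the 35 kinetochore-list promoters in the table, but in 8.33% of the 24 for polymerases and the fork, against 27.8% of all 27025 promoters of that length. In the last 100 bases before the start site the shares in those lists were 35.3%, 17.1% and 4.17%, against 9.91% of all. E2F letters lay in 29.2% of the polymerase and fork promoters, 14.7% of the mitotic, 8.57% of the kinetochore and 5.56% of the 18 nucleotide-supply promoters, against 2.32% of all. In the last 100 bases these shares were 8.33%, 8.82%, 5.71% and 0%, against 0.84% of all. The motifs were searched separately and may overlap, and a match describes the letters only.

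Upstream of these targets, most E2F genes rose. Among 10 E2F factors and their partners 7 rose and 1 fell (median 1.06). The activator E2f1 read 695 and 611 in WT and 1485 and 1441 in Rb1 KO, E2f3 916 and 866 in WT and 1796 and 1907 in Rb1 KO, and E2f2 855 and 643 in WT and 847 and 885 in Rb1 KO, the last without passing, although it passed as a rise without WT replicate 1 (0.43) and with equal totals (0.51). The atypical repressor E2f7 changed most, from 0 and 4.26 to 640.0 and 545 (8.01 ± 0.58), and the dimer partner Tfdp1 rose by 2.20 ± 0.08, whereas the repressor E2f6 fell by 0.43 (SE 0.08), which did not pass with equal totals (-0.15). Of the other pocket proteins, Rbl1 (p107) read 219 and 181 in WT and 1334 and 1316 in Rb1 KO, and Rbl2 (p130; shared with Aktip) read 997 and 1102 in WT and 721 and 746 in Rb1 KO. The groups did not overlap for either, Rbl1 being higher and Rbl2 lower without Rb1. The MuvB subunit Lin9 rose (2.27 ± 0.13), as did its mitotic partner Mybl2 (4.44 ± 0.31), while the subunit Lin37 (shared with Hspb6) did not pass.

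Cyclins and their kinases rose in 14 of 16 genes and fell in 2, Ccnd3 and Cdc25b (shared with Spef1), a phosphatase that activates the kinases (median 2.26). Among D-type cyclins the leading form changed. Ccnd3 (shared with Bysl), the D cyclin of differentiated muscle, held 60.8% and 58.2% of D-cyclin reads per kilobase in WT and 21.2% and 19.8% in Rb1 KO, while Ccnd1 (shared with LTO1) went from 25.1% and 28.8% to 54.0% and 52.4% and Ccnd2 from 14.1% and 13.0% to 24.8% and 27.8%. The D-cyclin total per kilobase was 620 and 691 in WT and 687 and 645 in Rb1 KO, which overlap. The E cyclins, which open S phase, both rose, Ccne1 from 568 and 496 to 4214 and 3764 and Ccne2 (shared with Ints8) from 336 and 274 to 5435 and 4623. The mitotic cyclin Ccnb1 read 0 and 9.59 in WT and 342 and 380.1 in Rb1 KO and its kinase Cdk1 46.7 and 72.5 in WT and 2299.5 and 2060.0 in Rb1 KO, whereas Cdk4 (shared with Tspan31), the partner of the D cyclins, changed by 0.38 ± 0.06. Among the inhibitors, the values went both ways. Cdkn1c (p57) read 32948 and 32878 in WT and 4768 and 4559 in Rb1 KO and fell by 2.82 (SE 0.04, limma adjusted p = 8.85e-14), Cdkn1a (p21) read 42322 and 42279.8 in WT and 28669 and 28952 in Rb1 KO, and Cdkn1b (p27) did not pass (0.10 ± 0.09), but passed as a rise with equal totals (0.38). The INK4 family, which blocks Cdk4 and Cdk6, rose in Cdkn2c (2.07 ± 0.08) and Cdkn2a (1.14 ± 0.08). Genes of p53 and apoptosis moved in both directions, 17 of 26 up and 8 down (median 1.27), with the pro-apoptotic Bcl2l11 at 298 and 252 in WT and 1986 and 2037 in Rb1 KO and Trp53inp1 at 1804 and 2203 in WT and 13840.4 and 12960.2 in Rb1 KO.

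**Figure D2:**
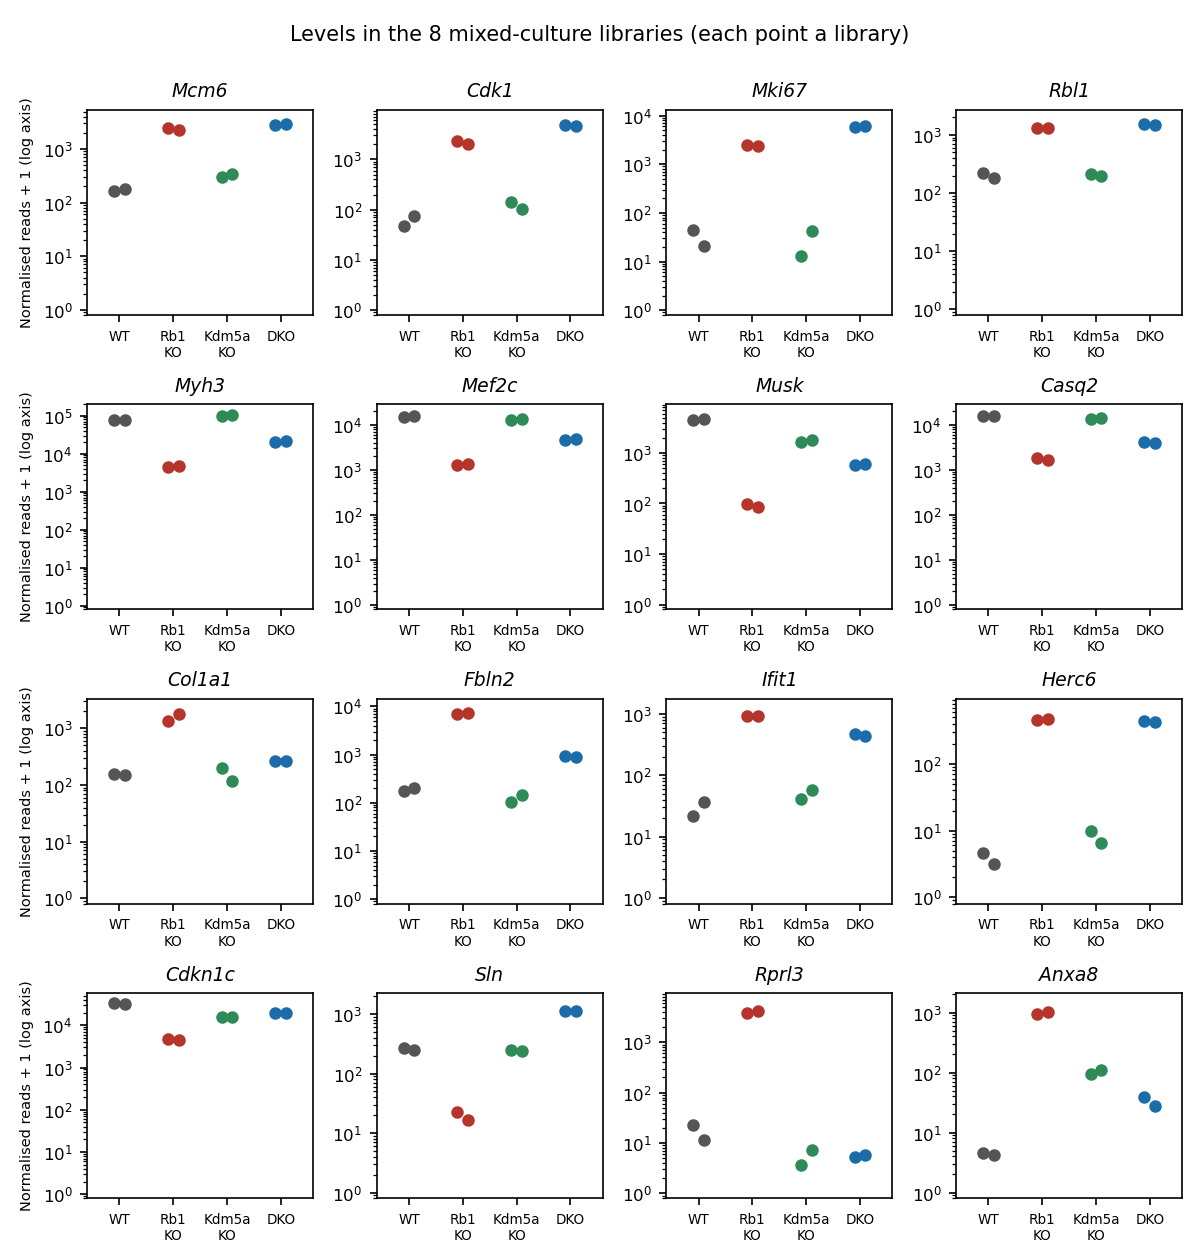
Normalised reads plus 1, on a log axis, of 16 genes in the 8 mixed-culture libraries, each point a library. In the top row, cell-cycle genes are low in the 4 libraries with Rb1 and high in the 4 without, and in the second row muscle genes are lowest in the 2 Rb1 KO libraries, with the DKO libraries between them and WT. Matrix and interferon genes follow in the third row, and the fourth holds genes whose change with loss of Rb1 differed between the Kdm5a backgrounds.

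Chromatin genes that serve replication rose with it. In the list of Polycomb, maintenance methylation and histone chaperones 16 of 20 rose and 3 fell (median 1.55). Of the Polycomb methyltransferases, Ezh1, the form of resting cells, held 49.3% and 47.0% of the pair's reads per kilobase in WT and 4.85% and 4.99% in Rb1 KO, and Ezh2, the form of dividing cells, rose from 421 and 417 to 3924 and 3933. The maintenance factor Uhrf1, which guides Dnmt1 to newly copied DNA, went from 20.3 and 4.26 to 569.8 and 551, and the chaperone subunit Chaf1b from 65.8 and 67.2 to 1479 and 1301. Replication-dependent histones rose in 25 of 33 tested genes, for example Hist1h1b from 20.3 and 35.2 to 878 and 882, and 18 listed histone genes were under the limit of 10. The 5 that fell included Hist1h1c (-0.78 ± 0.07) and Hist1h2bc (-1.44 ± 0.09), which are known to be made as polyadenylated transcripts in resting cells too. In the nuclear envelope list 7 rose and 7 fell of 17, near the 36.8% and 34.3% of all genes tested. Lmnb1, the lamin that falls in arrested cells, read 101 and 123 in WT and 947 and 1019 in Rb1 KO, Lmna 10394 and 9896 in WT and 6298 and 6113 in Rb1 KO, and the muscle envelope protein Plpp7 1549 and 1596 in WT and 72.9 and 65.2 in Rb1 KO. Of the demethylases related to Kdm5a, Kdm5b fell by 0.84 (SE 0.08) and Kdm5c by 0.66 (SE 0.06), and the Y-linked Kdm5d did not pass. The largest chromatin fall among the histone deacetylases was Hdac11 (shared with Gm14573), from 2228 and 2409 to 604 and 633, and the largest rise Hdac7 (shared with Slc48a1), from 105 and 103 to 562 and 709.

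The muscle programme fell, but not evenly across its layers. At the top of the hierarchy, 11 myogenic regulators rose and 10 fell of 24 (median 0.32), against 36.8% and 34.3% of all genes tested. Myog, which starts terminal differentiation, read 16127 and 18252 in WT and 10378 and 10372 in Rb1 KO, a change of -0.73 ± 0.06. Myod1 read 5852 and 6886 in WT and 2351 and 2907 in Rb1 KO, where counts do not tell the viral from the cell's own transcript. Myf6, the regulator of late fibres, nearly vanished, from 235 and 374 to 0 and 0.905, with 569-fold (95% counting interval 102 to 22517) fewer normalised reads. The Mef2 factors parted, Mef2c falling from 14872 and 15866 to 1252 and 1346 while Mef2a (shared with Lysmd4) rose from 8735 and 8097 to 14124 and 13743. Homeobox and Eya factors that act ahead of MyoD in the embryo moved up in Six4 (0.90 ± 0.07), Eya1 (0.71 ± 0.12) and Eya4 (0.80 ± 0.06), and so did the E proteins that pair with MyoD, Tcf3 (1.55 ± 0.08) and Tcf12 (0.75 ± 0.05). Pax3, the factor of embryonic muscle precursors, read 0 and 1.07 in WT and 99.9 and 110.4 in Rb1 KO, a rise of 188-fold (95% counting interval 33.4 to 7479). Factors that hold MyoD back rose in 13 of 19 genes and fell in 2 (median 1.34). Twist2 read 28.7 and 50.1 in WT and 389 and 368 in Rb1 KO, Mdfic 251 and 299.5 in WT and 1333 and 1376 in Rb1 KO, and the Notch-driven repressors Hey1 40.7 and 68.2 in WT and 398 and 396 in Rb1 KO and Heyl 3.59 and 8.53 in WT and 167 and 134 in Rb1 KO. Id1 was among the exceptions at 1679 and 1913 in WT and 1051 and 1189 in Rb1 KO. Mef2a, Pax3, Six4 and Eya1 were chosen after their values were seen.

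Lists of the contractile apparatus fell by median to different extents, the actins hardly at all. Of 12 myosin heavy chains 8 fell and 3 rose (median -3.03). Embryonic Myh3 read 77084 and 76912 in WT and 4384 and 4678 in Rb1 KO, a change of -4.09 ± 0.05 (limma adjusted p = 2.74e-14). Perinatal Myh8 read 5433 and 6317 in WT and 12.2 and 7.24 in Rb1 KO, the largest fall of the family at -9.14 ± 0.22. The 9 sarcomeric chains together read 15562 and 15568 per kilobase in WT and 839 and 878 in Rb1 KO, of which Myh3 held 81.8% and 81.6% in WT and 86.2% and 88.0% in Rb1 KO, so the embryonic form kept its lead as the total dropped. The chains that rose were the non-muscle Myh9 (1.96 ± 0.07) and Myh10 (2.09 ± 0.09) and the smooth muscle Myh11 (3.17 ± 0.43). Myosin light chains and binding proteins fell in 7 of 14 and rose in 4 (median -1.20), and of 6 actins 3 fell and 2 rose (median -0.09, which turns to 0.19 with equal totals and 0.000711 without Rb1 KO replicate 2). Over all tested genes 34.3% fell and 36.8% rose. Thin-filament genes fell in 9 of 11 troponins and tropomyosins (median -2.10), and the riser was Tpm4, a cytoskeletal form, from 597 and 689.7 to 2922 and 2656. Its share of tropomyosin reads per kilobase went from 1.67% and 1.94% to 20.8% and 19.1%. In the Z-disc, M-band and scaffold list 35 of 42 fell and 3 rose (median -2.16), with the calcineurin-binding Myoz2 at 3230.4 and 3178 in WT and 51.3 and 47.1 in Rb1 KO, the pointed-end nucleator Lmod2 at 4309.7 and 4254 in WT and 108 and 121 in Rb1 KO and desmin, Des (shared with Gm15179), at 21741 and 22174 in WT and 1161 and 1254 in Rb1 KO. The risers were Actn1, Actn4 (shared with Capn12) and Pdlim5, which occur outside muscle. Muscle actinins Actn2 and Actn3 held 24.9% and 26.5% and 64.1% and 62.8% of actinin reads per kilobase in the WT pair of libraries, and 2.93% and 2.66% and 30.0% and 28.8% in the Rb1 KO pair.

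**Figure D3:**
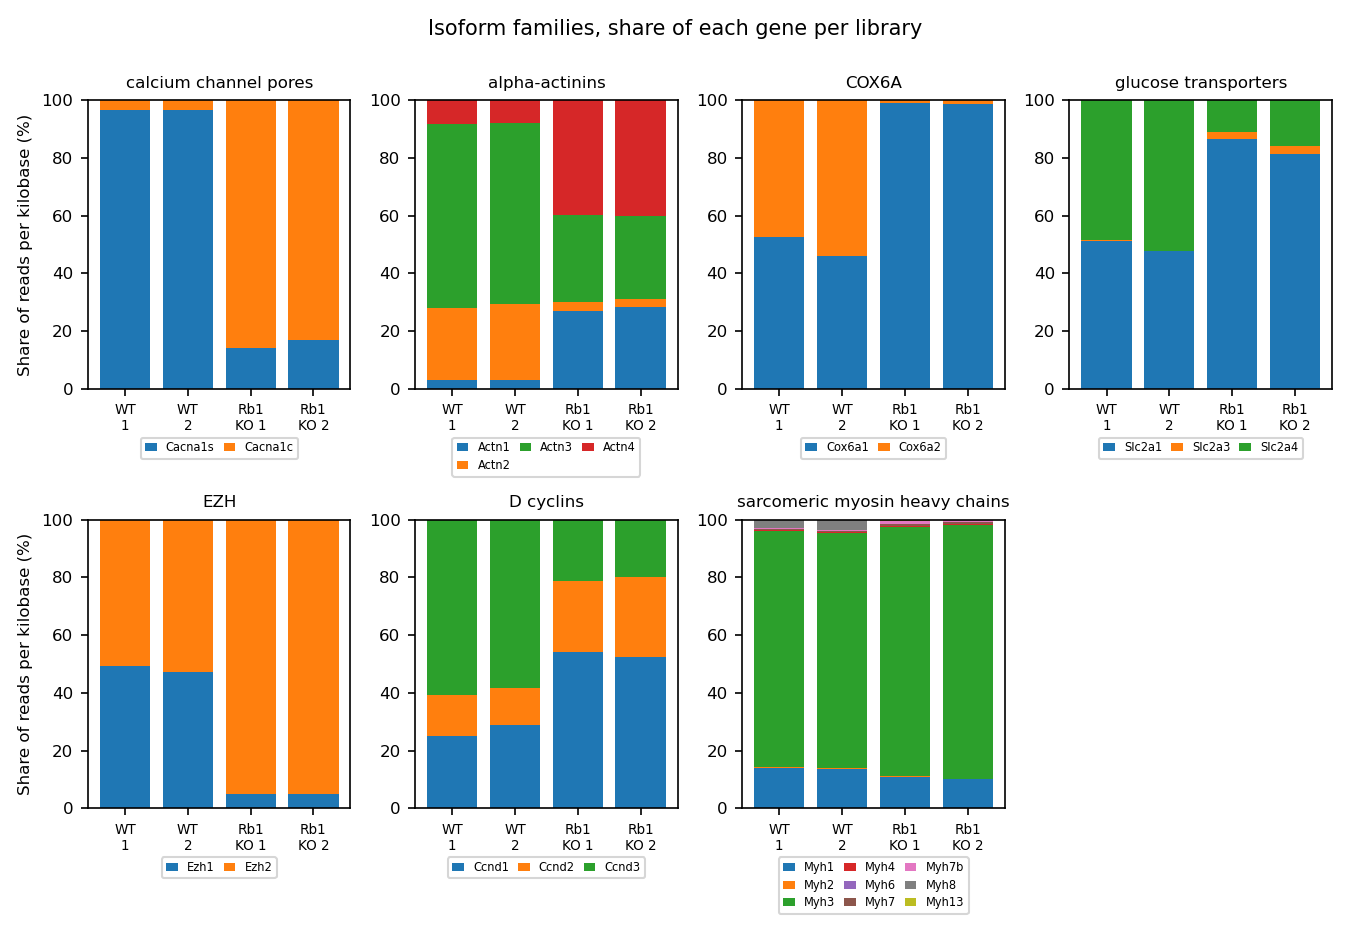
Share of each gene in its family's reads per kilobase, in percent, in the 2 WT and the 2 Rb1 KO libraries, for 7 isoform families. The myosin family drawn holds sarcomeric chains only, without the non-muscle Myh9 and Myh10. Cacna1s held 96.6% and 96.7% of the calcium channel pair in WT and 14.0% and 16.9% in Rb1 KO, and Cox6a2, Actn2, Slc2a4, Ezh1 and Ccnd3 also lost share, whereas the sarcomeric myosins stayed mostly Myh3.

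Membrane systems that let a fibre contract on command fell along with the filaments. Of 31 genes for calcium release and reuptake 22 fell and 6 rose (median -1.58). The store protein Casq2 read 15672 and 15990.3 in WT and 1805 and 1645 in Rb1 KO, the junctional Trdn 4143 and 4337 in WT and 386 and 464 in Rb1 KO and sarcalumenin, Srl, 39976 and 40049 in WT and 4918 and 4328 in Rb1 KO. The L-type calcium channel turned over, its muscle pore Cacna1s going from 1372 and 1458 to 139 and 198 and the broad pore Cacna1c from 157 and 161 to 2759 and 3152. Per kilobase, Cacna1s was 96.6% and 96.7% of the pair in WT and 14.0% and 16.9% in Rb1 KO. All 3 inositol trisphosphate receptors, which release calcium in other cells, rose, Itpr1 by 1.75 ± 0.08, Itpr2 by 1.47 ± 0.13 and Itpr3 (shared with Itpr3os) by 2.07 ± 0.44, or 1.17 without WT replicate 2. For membrane excitability 14 of 16 genes fell and 0 rose (median -1.73), with the sodium channel Scn4a at 212 and 224 in WT and 12.2 and 8.15 in Rb1 KO and the potassium channel Kcnj2 at 2661 and 2225 in WT and 366 and 371 in Rb1 KO. At the neuromuscular junction 11 of 17 fell and 3 rose (median -1.28). The agrin receptor kinase Musk read 4442 and 4721 in WT and 94.5 and 84.2 in Rb1 KO, and the embryonic receptor subunit Chrng 14014 and 12123 in WT and 1398 and 1406 in Rb1 KO. The risers in this list are signals and scaffolds that many cells make, Agrn (2.16 ± 0.16), Nrg1 (4.10 ± 0.14) and Utrn (0.68 ± 0.05). Lrp4, the co-receptor of Musk, fell by 0.73 (SE 0.08).

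Promoters of 2 junction genes show the E-box letters CAGCTG or CACCTG, read by MyoD and myogenin, in capitals on either strand. The windows are again 150 bases before the start site in GRCm38.p6, from RefSeq, for Chrna1 (chr2:73580339-73580488, minus strand) and Musk (chr4:58285812-58285961, plus strand), chosen because they hold a match.
Chrna1: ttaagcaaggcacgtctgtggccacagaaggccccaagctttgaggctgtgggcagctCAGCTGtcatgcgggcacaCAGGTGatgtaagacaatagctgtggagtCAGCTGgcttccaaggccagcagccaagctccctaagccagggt
Musk: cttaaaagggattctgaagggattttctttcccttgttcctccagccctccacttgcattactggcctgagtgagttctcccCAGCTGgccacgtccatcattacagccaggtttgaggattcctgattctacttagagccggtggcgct
The matches start 92, 73 and 44 bases before the start site in Chrna1 and 68 bases before it in Musk. Chrna1, the receptor's binding subunit, read 6871 and 5862 in WT and 1674 and 1410.2 in Rb1 KO. In the light-chain list, whose promoters were in the table for 13 of 14 genes, E-box letters lay in 84.6% of windows of 250 bases before to 50 after the start, the highest share of any list searched, and in the heavy-chain list in 36.4% of 11, against 32.6% of all 27025. In the last 100 bases the shares were 30.8% and 9.09%, against 12.2% of all.

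Fusion and upkeep of fibres were split. Among 22 fusion genes 8 rose and 11 fell (median -0.16, which changes sign when libraries are scaled to equal totals). Over all tested genes 36.8% rose and 34.3% fell. Mymk, the fusogen myomaker, read 11839 and 12358 in WT and 3616 and 3592 in Rb1 KO, while its partner Mymx, chosen after its values were seen, read 779 and 738 in WT and 789.9 and 716 in Rb1 KO and did not pass, but passed as a rise with equal totals (0.27). The caveolar and repair proteins Cav3 (-4.47 ± 0.11) and Trim72 (shared with Gm15533; -3.83 ± 0.06) fell, and the adhesion and engulfment genes Kirrel (4.03 ± 0.12), Dock1 (2.91 ± 0.08), Cdh2 (1.17 ± 0.07) and Adgrb1 (4.36 ± 0.47) rose. Muscle ubiquitin ligases and Foxo factors fell in 12 of 18 and rose in 5 (median -0.82). The atrophy ligase Trim63 (MuRF1) read 853 and 887 in WT and 158 and 139 in Rb1 KO, and 2 of the factors that drive it, Foxo1 and Foxo3, rose by 0.99 ± 0.09 and 1.75 ± 0.09, whereas Foxo4 fell by 2.08 (SE 0.08). Splicing regulators shifted with them. Mbnl1 rose from 3265 and 3083 to 11712 and 13024 and Mbnl3, the form of proliferating myoblasts, from 43.1 and 44.8 to 1163 and 1151, whereas Rbm20, which sets titin splicing, fell from 1739.7 and 1694 to 783 and 757.

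Growth signals around the fibre changed in opposite directions for ligands of the same family. In the myostatin, activin and TGF-beta list 30 of 40 rose and 6 fell (median 1.25). Mstn, the muscle-made brake on growth, read 4785 and 7038 in WT and 9.45 and 9.05 in Rb1 KO, the largest fall of any named gene at -9.15 ± 0.20. The activin subunit Inhbb went the other way, from 14.4 and 8.53 to 1154 and 1105, as did the latent TGF-beta binder Ltbp1, from 489 and 479.7 to 3851 and 3927. Antagonists of BMP split too, Grem1 rising by 495-fold (95% counting interval 137 to 4093) and Nog falling from 528 and 613 to 41.9 and 36.2. In Notch signalling 17 of 23 rose and 3 fell (median 0.90), with the receptors Notch1 (shared with Gm13568; 1.52 ± 0.08) and Notch3 (4.26 ± 0.15) up and Hes6, which counters Hes1, down (-1.44 ± 0.04). In Hedgehog signalling 7 of 10 rose and none fell (median 1.07), led in level by Gli3, from 2112 and 2094 to 6489 and 6947.

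Genes of insulin-like growth factor signalling went both ways, 9 of 17 up and 7 down (median 0.41), as did all tested genes, 36.8% up and 34.3% down. Igf1 read 1442 and 1584 in WT and 5667 and 5526 in Rb1 KO and its receptor Igf1r 1648 and 1764 in WT and 3458 and 3839 in Rb1 KO, both higher in the 2 Rb1 KO libraries. Igf2 (shared with Igf2os), which feeds embryonic muscle, read 59243 and 57783 in WT and 25817 and 26844 in Rb1 KO, lower in both. The protease that frees Igf1 from its binding proteins, Pappa, rose from 38.3 and 27.7 to 1312 and 1539 (5.40 ± 0.23), while the binding protein Igfbp3 fell from 6295 and 8368 to 2706 and 2595. Of 17 imprinted growth genes 11 fell and 2 rose (median -0.62). H19 (shared with Mir675) read 236714 and 248281 in WT and 106740.0 and 108689 in Rb1 KO, Meg3 (shared with Mir770) 15118 and 18461 in WT and 1472 and 1929 in Rb1 KO and Peg3 20332 and 22364 in WT and 7547 and 7355 in Rb1 KO, all lower without Rb1, and the risers were Mest (shared with Copg2; 1.41 ± 0.07) and Dcn (2.30 ± 0.30).

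By median, energy metabolism fell by a smaller step than myosin heavy chains (-3.03), troponins and tropomyosins (-2.10) and the Z-disc list (-2.16). The medians of light chains (-1.20) and actins (-0.09) lay among or above those of the energy lists. Complex I fell in 30 of 37 genes and rose in 3 (median -0.97), complexes II and III in 12 of 14 with 0 rising (median -1.15), and ATP synthase with its carriers in 13 of 19 with 3 rising (median -0.78). The complex I subunit Ndufa9 read 2599 and 2897 in WT and 709 and 688 in Rb1 KO and cytochrome c1, Cyc1, 3226 and 3168 in WT and 910.1 and 978 in Rb1 KO. The 2 libraries of each group were close, and both Rb1 KO values of each gene were under those of WT. Cytochrome oxidase showed the change of isoform. The muscle subunit Cox6a2 (shared with Itgad) read 1333 and 1451 in WT and 6.75 and 9.96 in Rb1 KO (-7.24 ± 0.17), and its counterpart Cox6a1 1518 and 1279 in WT and 714 and 861 in Rb1 KO. Cox6a2 held 47.5% and 53.9% of the pair's reads per kilobase in WT and 0.966% and 1.18% in Rb1 KO. Cox6b2, known from testis, rose from 10.8 and 7.46 to 567 and 511. The coactivator Ppargc1a, a driver of mitochondrial genes in muscle, read 345 and 257 in WT and 185 and 227 in Rb1 KO, a change of -0.54 ± 0.15 that did not pass without Rb1 KO replicate 1 (-0.39), without WT replicate 1 (-0.32) or with equal totals (-0.25). The mitochondrial transcription factor Tfam rose, from 409 and 545 to 898 and 1017, and Nrf1 rose by 0.96 ± 0.08, whereas the estrogen-related receptors Esrrb (-4.22 ± 0.27) and Esrrg (-1.44 ± 0.15) fell.

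Fuel use moved with it. In the tricarboxylic acid cycle and fatty acid oxidation 32 of 44 fell and 10 rose (median -1.10), with Pdha1 (shared with Map3k15), which admits pyruvate, at 9264 and 8578 in WT and 1936 and 1969.5 in Rb1 KO and the fatty acid transporter Cd36 at 704 and 1031 in WT and 47.3 and 63.4 in Rb1 KO. The kinases that shut that entry, Pdk3 (0.86 ± 0.12) and Pdk4 (0.88 ± 0.09), rose. Glycolysis fell in 18 of 26 and rose in 3 (median -0.83). The insulin-responsive transporter Slc2a4 read 1261 and 1274 in WT and 140.4 and 199 in Rb1 KO, and muscle phosphofructokinase Pfkm (shared with Senp1) 9203 and 8883 in WT and 1356 and 1319.6 in Rb1 KO. Glycogen genes fell in 15 of 19 with 1 rising (median -1.24), among them the targeting subunits Ppp1r3a, 3616 and 3455 in WT and 77.0 and 99.6 in Rb1 KO, and Ppp1r3c, 601 and 757 in WT and 27.0 and 22.6 in Rb1 KO. Creatine and adenylate genes fell in 12 of 15, with Ckm (shared with A930016O22Rik) at 2827 and 2456 in WT and 284 and 274 in Rb1 KO and 3 rising. Sterol and fatty acid synthesis, which myotubes use for new membrane, fell in 24 of 34 and rose in 6. The desaturases Scd1 and Scd2 read 9816 and 9650.0 in WT and 1443 and 1379 in Rb1 KO, and 18476 and 18381 in WT and 3728 and 3739 in Rb1 KO, while the polyunsaturated branch rose in Fads1 (2.64 ± 0.17), Fads2 (0.89 ± 0.08) and Elovl5 (1.30 ± 0.08).

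Genes of the extracellular matrix rose by median. Of 42 elastic-fibre and matricellular genes 33 rose and 3 fell (median 2.75). The proteoglycan Vcan read 363 and 448 in WT and 7926 and 8079.9 in Rb1 KO, the fibulin Fbln2 176 and 205 in WT and 6907 and 7334 in Rb1 KO, and thrombospondin, Thbs1, 1202 and 1486 in WT and 13982 and 15561 in Rb1 KO. Both Rb1 KO libraries lay above both WT libraries for each. Collagen chains rose in 25 of 40 and fell in 11 (median 1.90, range -4.16 to 4.67). Among the risers were fibril formers, Col1a1 from 158 and 147 to 1358 and 1818, Col5a2 from 3007 and 3077 to 17174 and 18364 and Col11a1 from 462 and 438 to 3576 and 4636. Among the chains that fell were the membrane-spanning Col25a1, which muscle makes to guide motor axons, from 8502 and 8842 to 1003 and 947 and Col23a1 from 474 and 423 to 85.1 and 94.1. The cross-linking enzymes Lox and Loxl2 read 339 and 521 in WT and 3540.4 and 3910.0 in Rb1 KO, and 169.9 and 158 in WT and 1341 and 1426 in Rb1 KO, in a collagen-processing list where 20 of 27 rose and 5 fell (median 0.91). Metalloproteinases and their inhibitors rose in 22 of 37 and fell in 7, with Mmp2 (2.83 ± 0.11), Timp1 (3.32 ± 0.15) and Timp3 (shared with Syn3; 3.49 ± 0.09) among the risers. Among integrins the muscle laminin receptor Itga7 (shared with Mettl7b) fell from 7513 and 6912 to 1496 and 1517 and the receptor chains Itgav (shared with Gm13684) and Itga11 rose, by 1.84 ± 0.10 and 1.44 ± 0.16. Of 47 transcription factors of limb and mesenchyme 25 rose and 12 fell (median 0.83), against 36.8% and 34.3% of all genes tested. Among the risers were Hmga2 (shared with 1700006J14Rik) from 102 and 101 to 2005 and 1729 and Prrx1 from 3809.5 and 3765 to 9125 and 9827.

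Interferon-stimulated genes, the antiviral set that type I interferon induces, were raised as well. Of 41 tested 35 rose and 2 fell (median 2.84). The RNA-binding Ifit1 read 20.3 and 35.2 in WT and 910.1 and 920.5 in Rb1 KO, the ubiquitin ligase Herc6 3.59 and 2.13 in WT and 454 and 463 in Rb1 KO and the secreted Lgals3bp 88.5 and 62.9 in WT and 1029 and 1201 in Rb1 KO. Ifi44 had 1 read in WT and rose 883-fold (95% counting interval 158 to 34929.6), and the guanylate-binding Gbp3 had no reads in WT and was at least 71.1-fold higher, taking 3 reads over the 2 WT libraries as the floor. The DNA sensor Cgas (shared with Gm8093) read 35.9 and 48.0 in WT and 454 and 549 in Rb1 KO. Regulators and sensors as a list were mixed, 21 of 36 up and 8 down (median 0.53), with Stat3 (shared with Stat5a; -0.83 ± 0.05), Mavs (-0.65 ± 0.09) and Tlr4 (-1.46 ± 0.09) among those that fell. In antigen presentation the peptide transporter Tap1 read 28.7 and 37.3 in WT and 918 and 937 in Rb1 KO and the immunoproteasome subunit Psmb8 had 133-fold (95% counting interval 36.4 to 1101) more normalised reads in Rb1 KO, while the class I heavy chains parted, H2-D1 at 74.2 and 64.0 in WT and 302 and 299 in Rb1 KO and H2-K1 at 897 and 776 in WT and 315 and 284 in Rb1 KO. Chemokines, cytokines and complement rose in 21 of 26 tested genes, with 16 more under the limit of 10, among them Csf1 (2.73 ± 0.10), Cxcl12 (4.02 ± 0.20), Icam1 (5.02 ± 0.26) and Lif (3.85 ± 0.21), and Il15, a cytokine of muscle, fell (-1.32 ± 0.15). All cultures had received the same virus. Of 14 macrophage and blood markers 8 were under the limit of 10, 4 rose and 1 fell. The risers were low in level, among them Lyz2 at 2.39 and 3.20 in WT and 77.0 and 56.1 in Rb1 KO, Cd68 at 20.3 and 30.9 in WT and 90.5 and 89.6 in Rb1 KO and Cd14 at 0 and 2.13 in WT and 40.5 and 37.1 in Rb1 KO, and 4 markers under the limit, Adgre1, C1qa, C1qb and Tyrobp, lay between 0 and 3.20 in WT and between 18.9 and 40.7 in Rb1 KO. The list summed to 757 and 855 in WT and 437 and 393 in Rb1 KO, because Itgam, the one that fell, went from 676 and 729 to 18.9 and 19.9, and the haemoglobin genes Hba-a1 and Hbb-bs were at 0 in all 4 libraries. The part of these markers in the interferon and chemokine values was not tested.

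The Ifit1 promoter shows the letters GAAANNGAA of the interferon-stimulated response element in capitals on either strand, in the 150 bases before the start site in GRCm38.p6 (chr19:34640739-34640888, plus strand, RefSeq), chosen because it holds matches.
Ifit1: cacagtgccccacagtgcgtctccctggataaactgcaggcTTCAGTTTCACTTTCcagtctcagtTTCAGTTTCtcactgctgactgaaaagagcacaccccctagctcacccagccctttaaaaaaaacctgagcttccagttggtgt
The matches start 109, 103 and 84 bases before the start site, the first 2 overlapping, and these letters lay in 8.57% of all 27025 promoter windows of 250 bases before to 50 after the start. Too few interferon-list genes matched the promoter table (68.3%) for a share over the list.

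Hox genes, which record a cell's position along the body and limb, changed by cluster. All 8 tested HoxB genes rose (median 2.61) and 6 of 7 HoxC genes rose with none falling (median 3.88), whereas 5 of 7 HoxD genes fell with none rising (median -1.15). HoxA was divided, 3 rising and 3 falling of 11, against 36.8% and 34.3% of all genes tested. Hoxc6 read 26.3 and 23.5 in WT and 348 and 409 in Rb1 KO, Hoxd8 767 and 839 in WT and 324 and 311 in Rb1 KO and Hoxd10 526 and 488 in WT and 66.2 and 76.0 in Rb1 KO. Summed over the cluster, HoxC went from 55.0 and 62.9 to 693 and 818, and HoxD from 3400.3 and 3436 to 1609.5 and 1634. Neither pair of sums overlapped. In the Kdm5a-null pair of genotypes, the medians of DKO minus Kdm5a KO were 0.11 for HoxB, -0.71 for HoxC and -2.25 for HoxD. Hoxc10 (shared with Hoxc5) read 274 and 289.9 in Kdm5a KO and 8.42 and 10.3 in DKO, against no reads in WT and 4.05 and 22.6 in Rb1 KO. Pitx1 and Tbx4, factors known for setting hindlimb identity, fell, Pitx1 from 41.9 and 43.7 to 2.70 and 5.43 and Tbx4 from 214 and 258 to 18.9 and 23.5, and were also lower in DKO (38.9 and 38.3 for Tbx4) than in Kdm5a KO (404 and 355). Whether the embryos or the region of the body from which each line of MEFs came differed between genotypes is not stated in the labels, and its part was not tested.

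**Figure D4:**
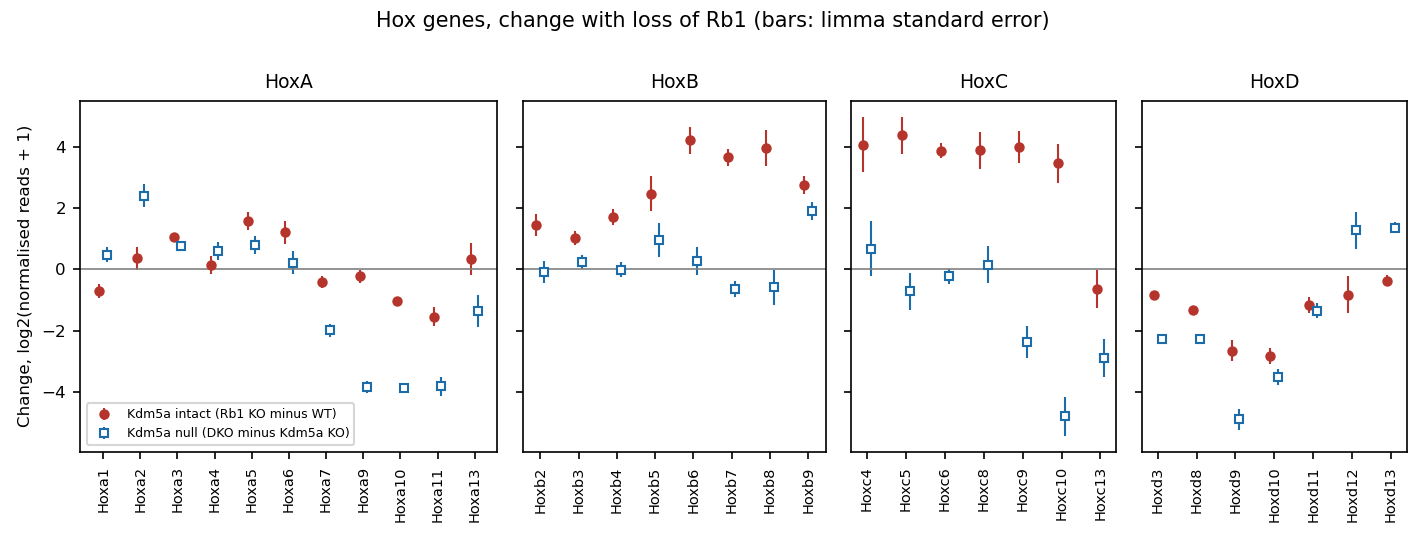
Change of the 33 tested Hox genes with loss of Rb1, in gene order within each cluster, on the log2(value + 1) scale with limma standard errors, for Kdm5a-intact cultures (Rb1 KO minus WT) and Kdm5a-null cultures (DKO minus Kdm5a KO). With Kdm5a intact HoxB and most HoxC genes lie above 0 and most HoxD genes below, and with Kdm5a null most HoxB and HoxC genes lie nearer 0 or under it.

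Set beside the same loss in Kdm5a-null cells, DKO against Kdm5a KO, which shares no library with this comparison, loss of Rb1 also moved most genes. There, 11551 genes passed (67.2%), 5802 rising (33.7%) and 5749 falling (33.4%). Of the 6336 genes that rose with Kdm5a intact 4442 (70.1%) also rose with Kdm5a null, and of the 5901 that fell 4200 (71.2%) also fell. The difference of the 2 changes, tested for each gene in limma's fit, passed for 6591 genes (38.3%), 3240 in the upward direction (18.8%) and 3351 in the downward (19.5%). Among these 6591, 2004 (30.4%) moved the same way in both backgrounds but less with Kdm5a null and 1084 (16.4%) the same way but more. A further 1588 (24.1%) passed with Kdm5a intact alone and 1128 (17.1%) with Kdm5a null alone, 746 (11.3%) passed in opposite directions, and 41 were of no such kind. Kdm5a KO and DKO have no reads of the Y-linked Kdm5d and Ddx3y, which all 4 Kdm5a-intact libraries hold, so sex and Kdm5a cannot be told apart in this difference. Ddx3y read 3319 and 3308 in WT and 1267 and 1079.8 in Rb1 KO, and the 3 other tested Y-linked genes did not pass.

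The distance between the medians in the 2 backgrounds varied from list to list. Among lists of at least 15 tested genes it ran from 0.01 to 0.53 over 11 cell-cycle lists (middle value 0.19), from 0.02 to 1.45 over 12 muscle lists (0.61) and from 0.07 to 1.53 over 7 matrix lists (0.54), so these ranges overlap. The median change of the mitotic list was 4.47 with Kdm5a intact and 4.65 with Kdm5a null, and that of the kinetochore list 3.76 and 3.95, with 6 genes passing the difference upward and 6 downward of 39. Licensing stood at 3.24 and 2.75 and homologous recombination at 1.82 and 2.36. In the Z-disc list the medians were -2.16 and -0.71, and 29 of 42 genes passed the difference upward and 4 downward, against 18.8% and 19.5% of all genes. Calcium handling stood at -1.58 and -0.37, with 21 of 31 upward. The dystrophin complex, at -0.61 and -0.59, and myogenic regulators, at 0.32 and 0.54, lay closer. Matricellular genes stood at 2.75 and 1.22 and collagens at 1.90 and 0.53, with 28 of 42 and 20 of 40 passing the difference downward, and integrins at 0.47 and 0.40. Glycolysis, sterol synthesis and complex I fell in both backgrounds by median, at -0.83 and -1.01, -1.002 and -1.17, and -0.97 and -0.95.

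**Figure D5:**
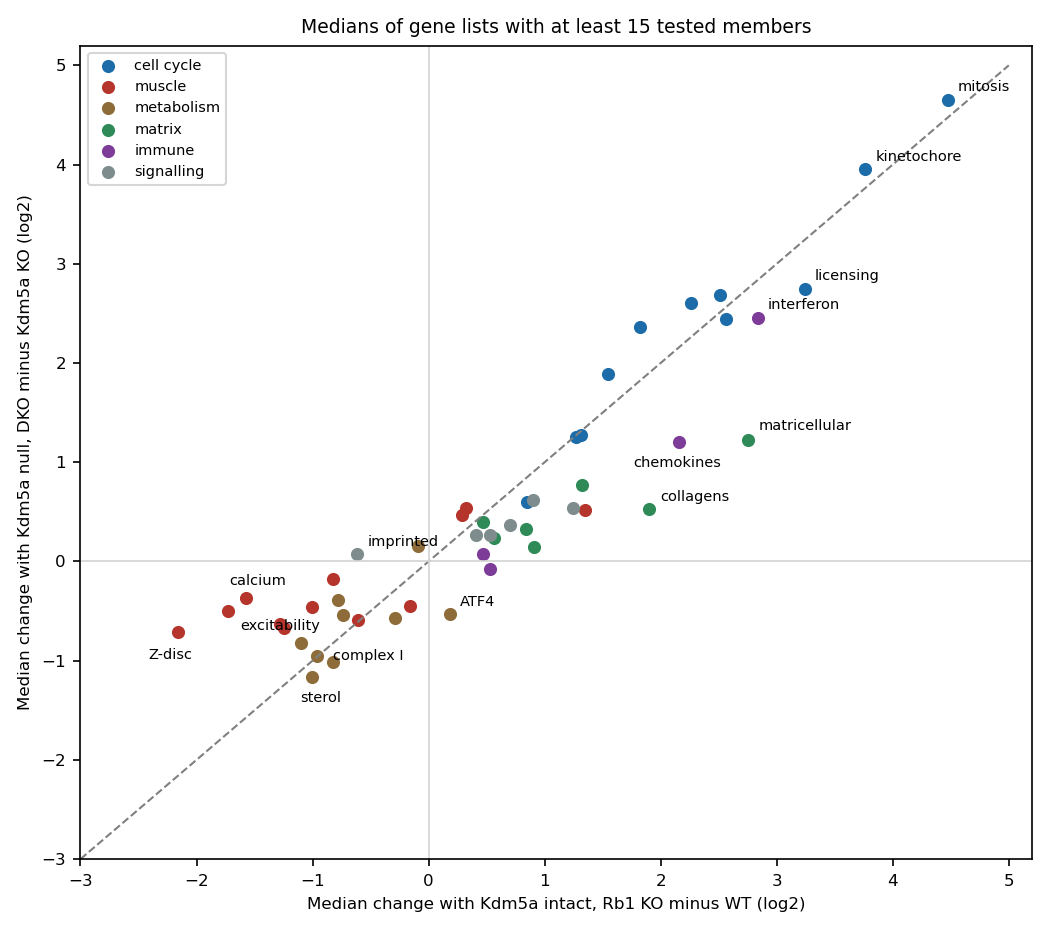
Median change of 49 gene lists of at least 15 tested members with loss of Rb1 when Kdm5a was intact (horizontal, Rb1 KO minus WT) and when it was null (vertical, DKO minus Kdm5a KO), on the log2(value + 1) scale, with the line of equal change dashed. Cell-cycle lists lie near that line, their 2 medians 0.01 to 0.53 apart, most muscle lists above it at negative values, and matrix lists below it at positive values.

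Single genes show how far the backgrounds parted. Cdkn1c, which fell by 2.82 with Kdm5a intact, read 15424 and 15905 in Kdm5a KO and 20110.1 and 19710.2 in DKO, a rise of 0.35 ± 0.04 there. Ckm read 1293 and 883 in Kdm5a KO and 1213 and 1167 in DKO (0.16 ± 0.14), against its fall of -3.24 ± 0.14. The calcium-pump inhibitor Sln fell from 267 and 244 to 21.6 and 15.4 with Kdm5a intact and went from 252 and 242 to 1133 and 1138 with Kdm5a null, and the fat transporter Cd36 went from 118 and 182 to 904 and 853 there. Fibronectin, Fn1 (shared with Apol7d), rose from 1161 and 1452 to 20547 and 26803 with Kdm5a intact and read 2956 and 2994 and then 2682 and 3202 with Kdm5a null. The RNase P RNA gene copy Rprl3 read 21.5 and 10.7 in WT and 3740.3 and 4157 in Rb1 KO. It read 2.71 and 6.30 in Kdm5a KO and 4.21 and 4.74 in DKO, so only 2 of the 8 libraries held it at a high level. The annexin Anxa8 read 3.59 and 3.20 in WT and 934 and 1003 in Rb1 KO, 92.2 and 107 in Kdm5a KO and 38.4 and 26.9 in DKO. The E cyclins and Mki67 went further with Kdm5a null, Ccne1 by 1.08 ± 0.16 and Mki67 by 1.71 ± 0.60 more than with Kdm5a intact.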

How the data were processed

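RNA-seq libraries of 12 samples were deposited as a table of signal values, which are read counts per gene that the authors divided by a size factor per library. Per the submitters' processing notes, TopHat 1.2.0, the mm9 build and DESeq were used. The read counter, annotation and strand setting are not given in the sources used here. Multiplied by the size factor, 100% of values were whole within 0.01. Libraries were grouped by genotype in the labels, and 30983 of 36229 identifiers (85.5%) matched a symbol in GENCODE M21, which also gave the exons that genes share.

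The 8 mixed-culture libraries were fitted together with limma 3.58.1 (R 4.3.3) on log2(value + 1) with an intensity trend and 1 mean per genotype, for genes with a mean of at least 10, and p-values were adjusted by Benjamini-Hochberg. The fit leaves 4 residual degrees of freedom. limma, edgeR 4.0.16 and DESeq2 1.42.0 were tested on simulated data with known changes. Few genes changed in those data, so they do not cover a comparison in which most genes moved. Alternatives for the counts, list medians and named genes covered both count tools on the recovered reads, rescaling, filters, pseudocounts, each library left out and a replicate block. Counting intervals (95%, exact binomial) and floors (3 reads) cover counting error only.

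Genes and gene lists were chosen with earlier results of these data known. Genes named were drawn from 12 set genes, the largest changes with group means of at least 100, and from each list the members with the smallest p, isoform pairs, members of short lists and those against the majority. For the largest changes, clone names were left out and the libraries of the groups could not overlap. Not every gene that fits is described. Promoters matched 67.3% of tested genes, under the 80% needed, so no shares are given over the genes that rose or fell, and lists are described only where at least 80% matched. Purified myotubes were used only for the WT sums of muscle and fibroblast markers.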

Additional observations from a re-analysis of the deposited data

Results flagged for a closer look

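The change with loss of Rb1 differed between Kdm5a-null and Kdm5a-intact cultures for 6591 genes in limma's test of the difference, and the named genes among them are given here as the change with Kdm5a null minus the change with Kdm5a intact, on the log2 scale with the standard error. Where a group holds 3 reads or fewer, as for Ifi202b, Gbp3 and Pthlh, the size of such a value depends on the 1 added before the logarithm. Of 4 tested Y-linked genes the 4 Kdm5a-null libraries hold 1 read in all, so sex and Kdm5a cannot be told apart in any of these values.

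For the muscle genes named here the change with loss of Rb1, though not always the level, was higher with Kdm5a null. The difference was 0.59 ± 0.13 for Myod1, 1.28 ± 0.08 for Myog, 1.78 ± 0.07 for Myh3 and 3.39 ± 0.20 for Ckm (shared with A930016O22Rik). Larger differences were those of the calcium-pump inhibitor Sln (5.93 ± 0.25), the calcium-dependent phosphodiesterase Pde1c (5.66 ± 0.17), the fat-droplet protein Fitm1 (shared with Gm15932; 5.93 ± 0.62), the oxidase subunit Cox6a2 (shared with Itgad; 5.63 ± 0.24) and the fat transporter Cd36 (6.51 ± 0.32). Pde1c read 1106 and 1242 in WT and 101 and 78.7 in Rb1 KO, but 584 and 569.9 in Kdm5a KO and 2209 and 2281 in DKO, so that it fell in 1 background and rose in the other. The imprinted Notch-family ligand Dlk1 differed by 7.01 ± 1.02, with 57.4 and 165 in WT and 27.0 and 24.4 in Rb1 KO against 0 and 5.60 in Kdm5a KO and 98.4 and 79.8 in DKO. Its change with Kdm5a intact passed (-1.88 ± 0.72) but did not pass without WT replicate 2 (-1.13), without Rb1 KO replicate 1 (-1.95) or without Rb1 KO replicate 2 (-1.82). The coactivator Ppargc1a differed by 1.21 ± 0.22, the proliferation marker Mki67 by 1.71 ± 0.60 and Rb1 itself by 0.43 ± 0.07.

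Genes whose change with loss of Rb1 was lower with Kdm5a null included the demethylases Kdm5b (-0.52 ± 0.11) and Kdm5c (-0.24 ± 0.09) and the collagen chain Col1a1 (-2.57 ± 0.30). The guanylate-binding Gbp3 differed by -6.25 ± 0.51, the parathyroid-hormone-related Pthlh by -6.92 ± 0.84, the RNase P RNA copy Rprl3 by -7.86 ± 0.59, Hoxc10 (shared with Hoxc5) by -8.23 ± 0.90 and the annexin Anxa8 by -9.39 ± 0.39. The interferon-inducible Ifi202b, whose level is known to vary between inbred mouse strains, differed by -8.03 ± 0.98. It read 0 and 1.07 in WT, 339 and 242 in Rb1 KO, 0 and 0.700 in Kdm5a KO and 0 in both DKO libraries, so that the 2 Rb1 KO libraries alone held more than 2 normalised reads of it.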

How the results depend on the processing

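Loss of Rb1 was called for 9142 to 13171 genes over 20 alternatives (11273 to 12195 with 1 library left out), the difference between Kdm5a backgrounds for 4916 to 6887 (4934 to 6688) and loss of Rb1 with Kdm5a null for 8571 to 12419 (9937 to 11969), all within 1.5 times the reported counts. With 1 library left out, the lone library of its group is assumed to vary like the other groups. The lowest of each came without genes that share exons, where 12780 were tested. On the recovered reads, edgeR called 12152 genes for loss of Rb1 and DESeq2 11623. Scaling to equal totals moved the split most, to 63.9% rising of those that passed against 51.8%. It turned Mymx to 0.27, past the threshold, and the medians of the fusion list to 0.12 and of the actins to 0.19. With 1 library left out the median of the actins ran from -0.186 to 0.000711. Of 860 list medians under an alternative 716 moved by no more than the spread between replicates. This count overstates how stable the medians are, because some alternatives cannot move them. Those are leaving out a Kdm5a KO or DKO library, fitting only the libraries compared, and the replicate block. Deviations of same-numbered libraries correlated across 17199 genes at -0.03 to 0.05, which shows no large shift shared by replicate number. It cannot exclude that libraries were made in numbered pairs, which the labels do not state. With the numbers as a replicate block, 12196 genes passed for loss of Rb1, 11517 with Kdm5a null and 6543 for the difference. Genes under a mean of 10 were not tested, and a library with 11983750 reads limits the precision of low genes.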

Other observations

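Growth factor signals outside the lists above shifted between families. In the FGF, PDGF, EGF and HGF list 19 of 36 genes rose and 10 fell (median 0.70), against 36.8% and 34.3% of all genes tested. The receptors Egfr (2.66 ± 0.09), Met (2.94 ± 0.11), Pdgfra (2.56 ± 0.38) and Pdgfrb (2.53 ± 0.14) rose, and Hgf, the ligand of Met, read 34.7 and 32.0 in WT and 897 and 999 in Rb1 KO, whereas the FGF ligands Fgf5 (-2.85 ± 0.38), Fgf9 (-1.44 ± 0.19) and Fgf7 (-0.93 ± 0.10) and the feedback genes Dusp6 (-1.24 ± 0.10) and Spry4 (-0.77 ± 0.14) fell. In Wnt signalling 20 of 36 rose and 11 fell (median 0.53), beside the same shares of all genes. Wnt5a (1.82 ± 0.11) and its receptor Ror2 (3.67 ± 0.17) rose, and Wnt11 (-2.14 ± 0.37), Wnt4 (-1.65 ± 0.16) and the feedback gene Axin2 (shared with Gm11670; -1.61 ± 0.17) fell. The early-response factor Egr3 (3.61 ± 0.75) and the oncogene Myc (1.78 ± 0.34) rose in a list where 13 of 20 rose and 4 fell.

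Actins went in both directions, with the sarcomeric Actc1 at 66859.5 and 74744 in WT and 4051 and 3358 in Rb1 KO and Acta1 at 8960.3 and 9877 in WT and 1811 and 2303 in Rb1 KO, the cytoplasmic Actb at 2169 and 1839.8 in WT and 7015 and 6972 in Rb1 KO and the enteric Actg2 at 29.9 and 6.40 in WT and 371 and 416 in Rb1 KO. Laminin chains rose in Lama4 (3.83 ± 0.19) and Lama1 (2.48 ± 0.58) and fell in Lamb3 (-1.77 ± 0.28). The small heat shock proteins of muscle, Hspb7 (-3.93 ± 0.19) and Hspb8 (-2.58 ± 0.07), fell. The amino-acid response was divided, 14 of 33 rising and 11 falling, near the 36.8% and 34.3% of all genes. In it Sesn2 was up (2.32 ± 0.13) and Atf4 down (-0.55 ± 0.07).

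Few markers of other cell types were tested. Of 13 endothelial markers 7 were tested, of which 4 rose and 2 fell, against 36.8% and 34.3% of all genes. Of 13 cartilage and bone markers 7 were tested and 4 rose and 1 fell, and of 14 neural and glial markers 7 were tested and 2 rose and 1 fell. Of 12 adipocyte markers 5 were tested and 2 fell, and of 12 epithelial markers 3 were tested and 1 fell. Summed over each list, neural and glial markers read 2691 and 2224 in WT and 8111 and 8403 in Rb1 KO. Cartilage and bone markers read 1094 and 1039 in WT and 2474 and 2687 in Rb1 KO, and endothelial markers 455 and 371 in WT and 753 and 866 in Rb1 KO. Adipocyte markers summed to 860 and 883 in WT and 629 and 576 in Rb1 KO, and epithelial markers to 173 and 120 in WT and 81.0 and 110 in Rb1 KO. On the mitochondrial chromosome 2 of 24 tested genes rose and 13 fell, and of 559 processed pseudogenes, which share sequence with their parent genes, 64 rose (11.4%) and 242 fell (43.3%).

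With clone names left out, the largest changes among genes with a group mean of at least 100 included genes outside the lists. Cdca7l (shared with Dnah11) had no reads in WT and was at least 237-fold higher in Rb1 KO, taking 3 reads over the 2 WT libraries as the floor, and Crabp1, which binds retinoic acid, rose 439.9-fold (95% counting interval 150.2 to 2136). The thyroid-hormone-binding Crym fell from 440.3 and 526 to 1.35 and 5.43, the lamin-interacting muscle protein Mlip from 743 and 680.1 to 5.40 and 9.05, the copine Cpne4 from 424 and 420.0 to 0 and 7.24, and trichohyalin, Tchh, from 323 and 508 to 6.75 and 0.905.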
